A study of Canis lupus familiaris with 23 samples.

Results

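The genes described here encode subunits of the mitochondrial respiratory chain and the ATP synthase. They were chosen by symbol: every gene whose symbol begins NDUFA, NDUFB, NDUFC, NDUFS, NDUFV, UQCR or ATP5, the SDH subunits SDHA to SDHD, CYC1, and the nuclear COX4 to COX8 subunits. A total of 60 of the 6540 named genes of the array met this rule, 30 of complex I, 3 of complex II, 7 of complex III, 6 of complex IV, 9 of complex V and 5 of another kind. Those 5, NDUFAF1, NDUFAF2, NDUFAF5, NDUFAF6 and NDUFAF7, are assembly factors that help to build complex I and are not part of it, so they are given apart from the 55 others. ATP5IF1 is an inhibitor of the ATP synthase, COX7A2L joins complexes III and IV into supercomplexes, and NDUFA4 was first assigned to complex I and later to complex IV. They stay with the complex their symbol names. No subunit encoded by mitochondrial DNA was among the named genes, so all values concern the nuclear part of the chain.

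The respiratory chain sits in the inner mitochondrial membrane. Complex I takes electrons from NADH and complex II, which is also the succinate dehydrogenase of the tricarboxylic acid cycle, takes them from succinate. Both hand them to ubiquinone, complex III passes them on to cytochrome c and complex IV to oxygen, while complexes I, III and IV pump protons. Complex V lets the protons flow back and makes ATP. Kidney tubule cells and hepatocytes are rich in mitochondria, and resting lymphocytes hold few.

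Expression was measured on Affymetrix canine arrays in 23 samples, which were 15 primary osteosarcomas, 2 cell lines of canine osteosarcoma and 6 normal organ samples (kidney, liver and lymph node, 2 of each). The tumors came from pet dogs at surgery, before any chemotherapy, and the organs from dogs of a research colony. Normal bone was not sampled, and each comparison with normal tissue therefore set a bone tumor against an unlike organ and pet dogs against colony dogs. The tumor RNA had an added column purification and the cell line RNA was extracted with a column kit, which cannot be told apart from the groups. The study describes the organ samples as biological replicates, and its tumors bear separate names in the labels, which do not say whether same-numbered organ samples shared a dog. The p-values cover the spread among these samples. Values are log2 expression by robust multi-array averaging (RMA), and every difference is in log2 units with its standard error (SE). A difference passed where limma's adjusted p was under 0.01.

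The labelled tissues carried their markers. Of the measured markers, 14 of 15 for hepatocytes were highest in liver, 10 of 10 for kidney tubule in kidney, 4 of 4 for lymphocytes in lymph node and 5 of 8 for osteoblasts in the tumors. For osteoclasts 3 of 4 and for macrophages 3 of 11 were highest in the tumors. Tumor 5 had the highest tumor value of 13 of 16 skeletal muscle genes. The mean muscle level of tumor 5 was 4.39 above the series mean, against -0.47 to 0.76 in the other tumors, while its respiratory chain genes averaged -0.04. The arrays also differed in technical signal. The control probe sets of actin and Gapdh at the 3′ end exceeded those at the 5′ end by a mean of 3.15 to 6.45 on 10 arrays, called low 5′ signal here (tumors 1, 4, 7, 8, 10, 12 and 14 and replicate 1 of each organ), and by -0.32 to 0.85 on the remaining 13.

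Over all 60 genes the chain was highest in kidney and lowest in lymph node, with the tumors on the side of the lymph node. The relative level of a sample, which averages over the genes how far its value lies from the mean of that gene in all 23 samples, was 0.66 and 0.64 in the kidneys, 0.28 and 0.14 in the livers and -0.27 and -0.16 in the lymph nodes. It was 0.19 and 0.33 in the cell lines and ran over the tumors from -0.60 in tumor 9 to 0.37 in tumor 4. Both kidneys were thus above all 15 tumors, while the livers, nodes and cell lines lay within the tumor range. The mean of the kidneys exceeded that of the livers, and that of the livers that of the nodes, for 47 of 60 genes (78.3%), against 16.0% of all named genes. The kidney mean was the highest of the 3 organs for 53 genes (88.3%, against 28.9%), and the tumor mean was nearer to lymph node than to the other organs for 38 (63.3%, against 42.8%). In these bulk samples, fewer cells of a mitochondria-rich type and less RNA per cell cannot be told apart.

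**Figure D1:**
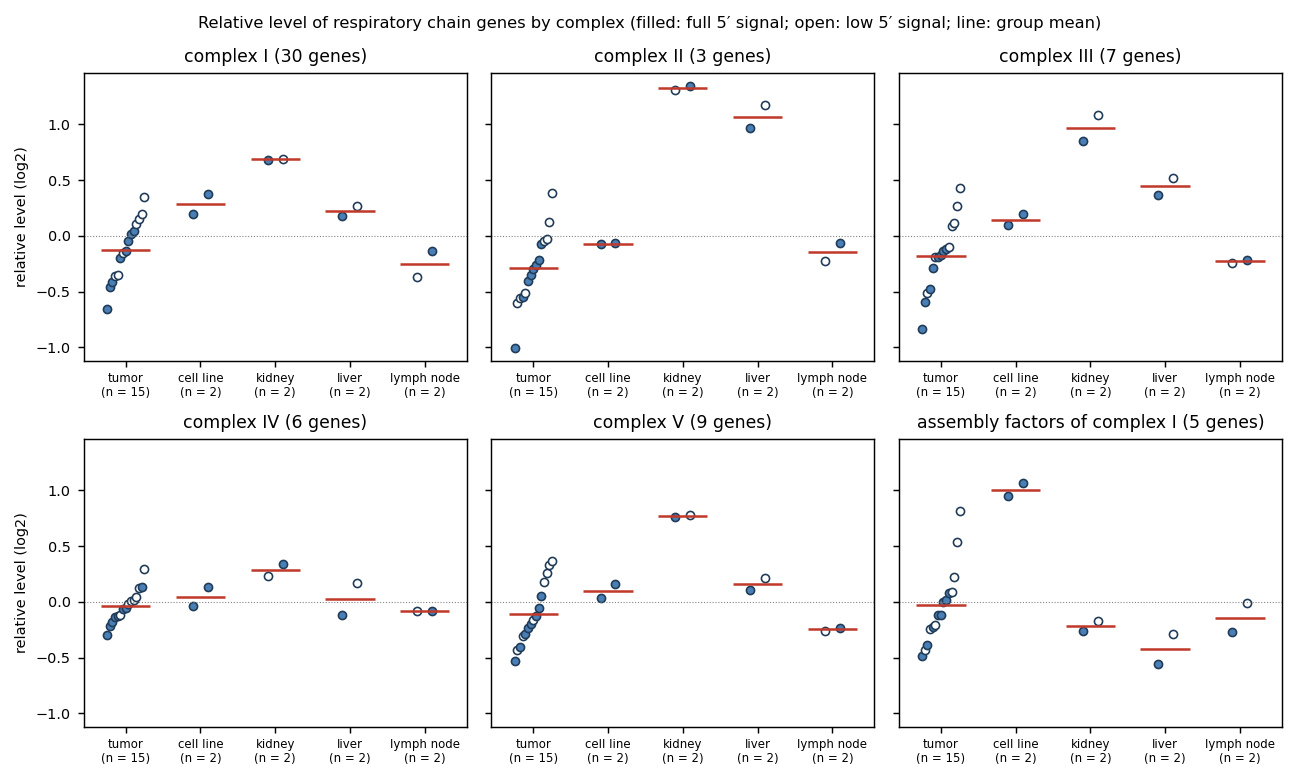
Relative level (log2) of the genes of each complex and of the complex I assembly factors in each of the 23 samples, by group; filled points are arrays with full 5′ signal, open points arrays with low 5′ signal, and lines are group means. The kidneys lie at the top for complexes I, II, III and V, at 1.31 and 1.34 for complex II, and the cell lines for the assembly factors, at 0.95 and 1.06.

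Against the 6 normal samples as 1 group, 5 of 60 genes were lower in the tumors, with 0 higher, where 4.51% of all named genes were lower and 4.74% higher. The 5 were NDUFA2, SDHD, NDUFS7, SDHB and NDUFA10. For none of the 60 did all 15 tumors lie below the lowest normal sample (0.657% of named genes did). The median difference of the 60 was -0.31, against 0.02 over all named genes, and 48 were below 0. Just outside the threshold lay UQCRC1 (-1.14 ± 0.28, adjusted p = 0.0103) and UQCR11 (-0.99 ± 0.26, adjusted p = 0.0135). The count was 0 without kidney 1, kidney 2 or liver 1, 1 without liver 2, 2 without tumor 2, 6 or 11, 3 without tumor 3, 5, 8, 9, 10, 13 or 15, and 10 without either lymph node. With organ as a random block, or with 1 averaged profile per organ, it was 0. The shares of all named genes in these fits, and in those without 1 sample, were not computed.

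The difference from normal tissue was not the same size against each organ. Against kidney, 18 of 60 genes were lower in the tumors and 0 higher, with a median of -0.82, where 7.19% of named genes were lower, 3.65% higher, and their median was 0.07. All 15 tumors lay below both kidneys for 25 of the 60, as for 9.17% of named genes. Against liver, 3 were lower (SDHB, SDHD and UQCR11) and 0 higher, with a median of -0.30, where 7.72% and 6.09% of named genes were lower and higher, so the share of the chain was below the background. All tumors lay below both livers for 8 genes (9.40% of named genes). Against lymph node, 0 were lower and 1 higher, NDUFA8, with a median of 0.01, where 3.43% and 2.52% were lower and higher. The tumors lay apart from both nodes for 1 gene on the lower side, NDUFA2 (7.87% of named genes), and for NDUFA8 on the higher side (5.60%). At an unadjusted p under 0.05, 36 genes were lower than kidney and 1 higher, where 954 of the 6540 named genes were lower and 963 higher. Against liver 18 were lower and 2 higher by this measure (959 and 1229 of the named genes), and against lymph node 1 was lower and 2 higher (923 and 611). These comparisons share the 15 tumors.

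Leaving out a sample of an organ or cell line left 1 sample, which was assumed to vary like the other groups. The count against kidney was 3 without kidney 1 and 11 without kidney 2. The 3 were SDHB, UQCR11 and ATP5MC1, which passed in each of the 23 fits that left out 1 sample, with highest adjusted p of 0.00924, 0.00069 and 0.0019. The liver count was 0 without liver 1, 1 without liver 2, 2 without either cell line, kidney or lymph node sample or without tumor 6, 8, 10, 11, 14 or 15, and 5 without tumor 1. NDUFA8 did not pass without either lymph node, with adjusted p of up to 0.0639.

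**Figure D2:**
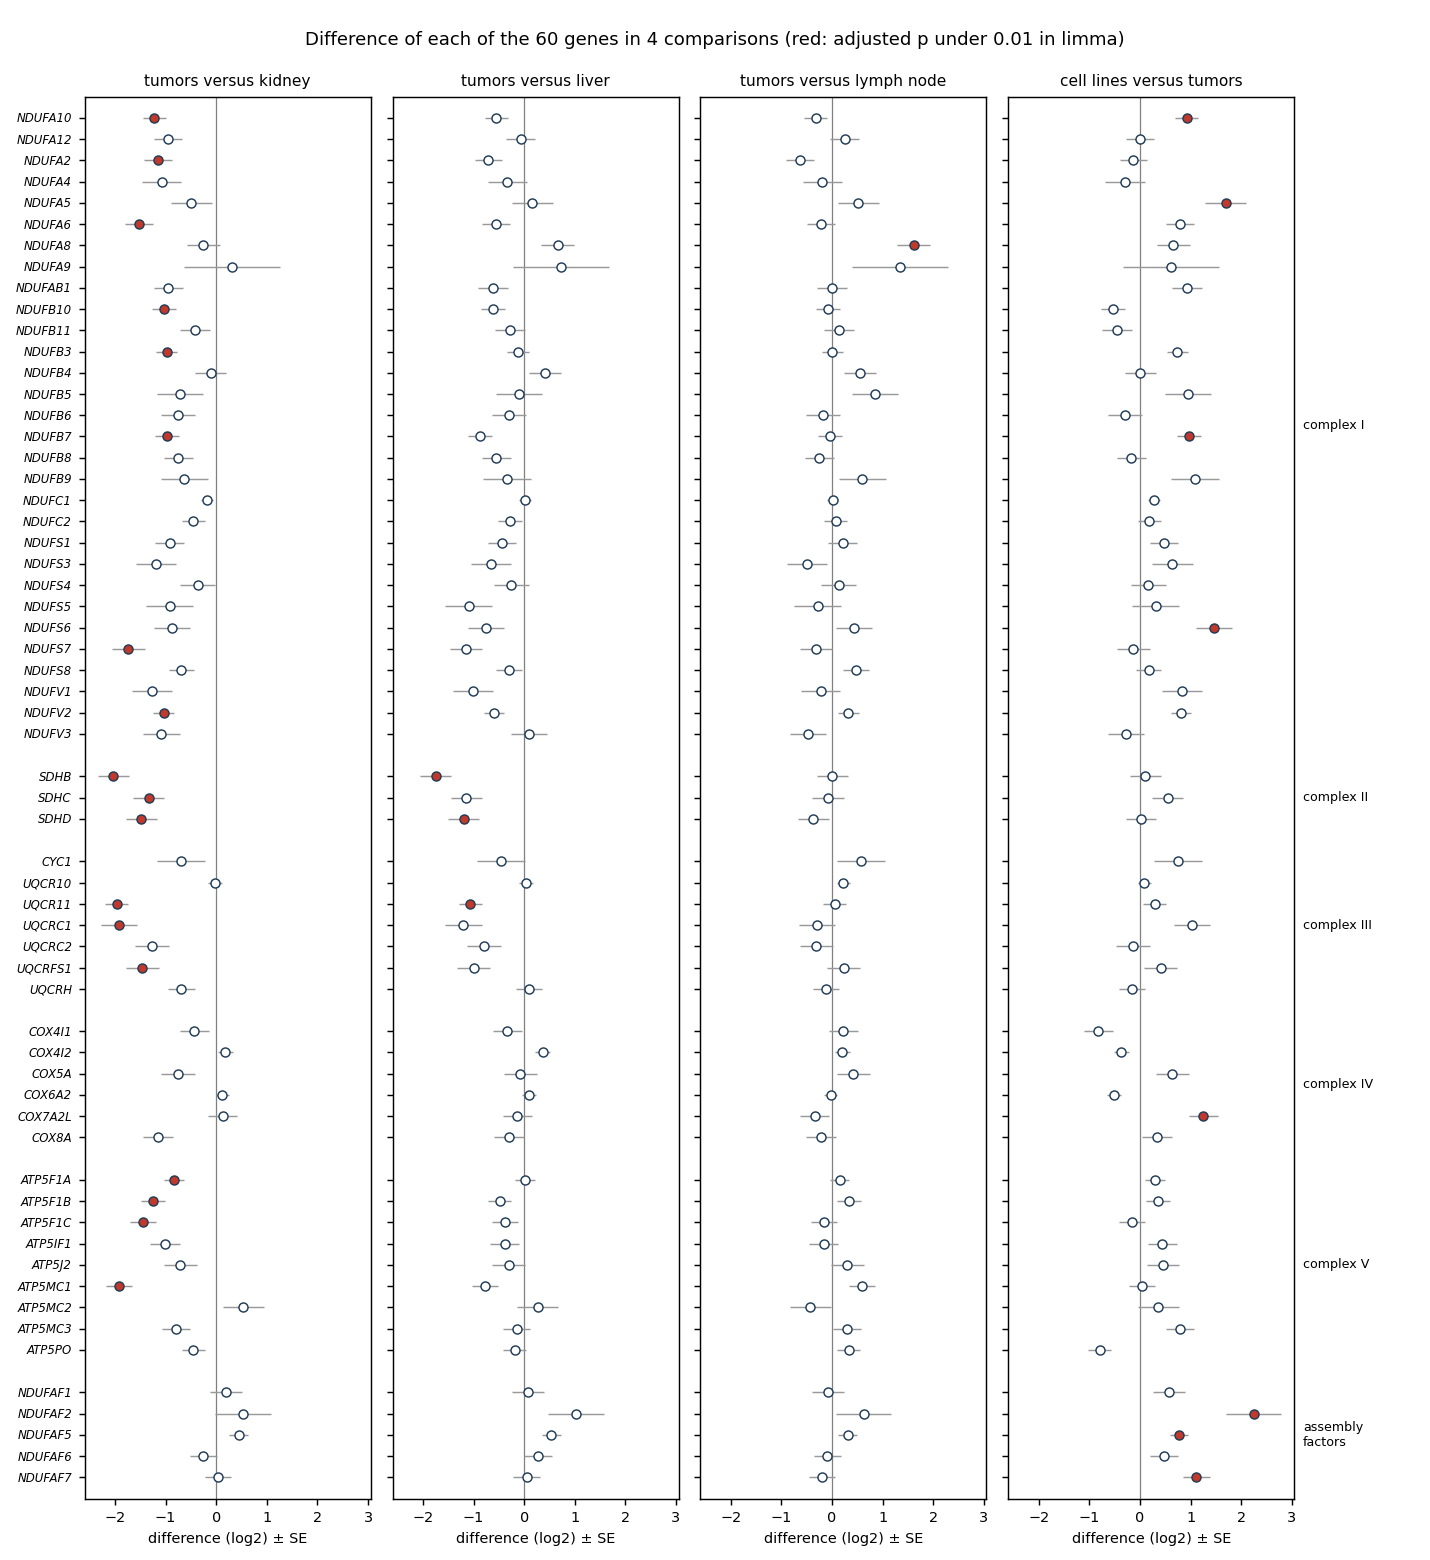
Difference (log2, points) and SE (bars) of each of the 60 genes for the tumors against each organ and for the cell lines against the tumors, grouped by complex; red points passed at an adjusted p under 0.01. Against kidney 18 points are red, all left of 0, and against lymph node the points scatter around 0 with a median of 0.01.

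Complex II had the lowest median difference of the 5 complexes against kidney and against liver. It couples the tricarboxylic acid cycle to the chain, and its measured subunits were SDHB, which carries the iron-sulfur clusters, and the membrane anchors SDHC and SDHD. All 3 were lower than kidney, with a median of -1.48, and SDHB and SDHD were also lower than liver, where the median was -1.19. SDHB was 11.83 and 11.39 in the kidneys, 11.62 and 11.01 in the livers, 9.53 and 9.61 in the lymph nodes, and 9.49 and 9.85 in the cell lines. The tumors ran from 8.91 in tumor 9 over a median of 9.51 to 10.37 in tumor 4. No tumor or cell line reached a kidney or liver sample, and both nodes lay within the tumor range. SDHB was 4.11-fold lower in tumors than in kidney (-2.04 ± 0.31, adjusted p = 6.64e-05) and 3.35-fold lower than in liver (-1.75 ± 0.31, adjusted p = 0.00031). Against lymph node it differed by 0.00 (95% interval -0.63 to 0.64). Against all normal samples it was lower by -1.26 ± 0.30 (adjusted p = 0.00827), a call lost in 16 of the 21 fits that left out 1 sample (adjusted p of 0.00118 to 0.0323), with kidney 1, kidney 2, liver 1 and liver 2 among those 16.

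SDHD was 10.93 and 11.17 in the kidneys, 10.68 and 10.83 in the livers, 9.87 and 10.005 in the nodes, and 9.39 and 9.78 in the cell lines. The tumors had 8.68 in tumor 1, 8.70 in tumor 9, a median of 9.71 and a highest value of 10.33 in tumor 4, so that again none overlapped kidney or liver. The difference was -1.48 ± 0.30 from kidney (adjusted p = 0.00184), -1.19 ± 0.30 from liver (adjusted p = 0.00912) and -1.02 ± 0.22 from all normal samples (adjusted p = 0.00459). With the replicate number as a block, which divides the organ samples just as the 5′ signal does, the liver call was lost (adjusted p = 0.0101). It was lost in 15 of 23 fits that left out 1 sample, with adjusted p of up to 0.134, and the call against all normal samples without kidney 1, kidney 2, liver 1 or liver 2, with adjusted p of up to 0.0169. SDHC was 10.07 and 10.36 in the kidneys, 10.10 and 9.94 in the livers and 8.82 and 9.10 in the nodes. Its tumors ran from 8.28 in tumor 9 over 8.89 to 10.22 in tumor 1, which was the one tumor above a kidney or liver value. SDHC was lower than kidney (-1.34 ± 0.31, adjusted p = 0.00565), a call lost without either kidney with adjusted p of up to 0.105. A further probe set of SDHC gave -0.97 against kidney (adjusted p = 0.154).

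**Figure D3:**
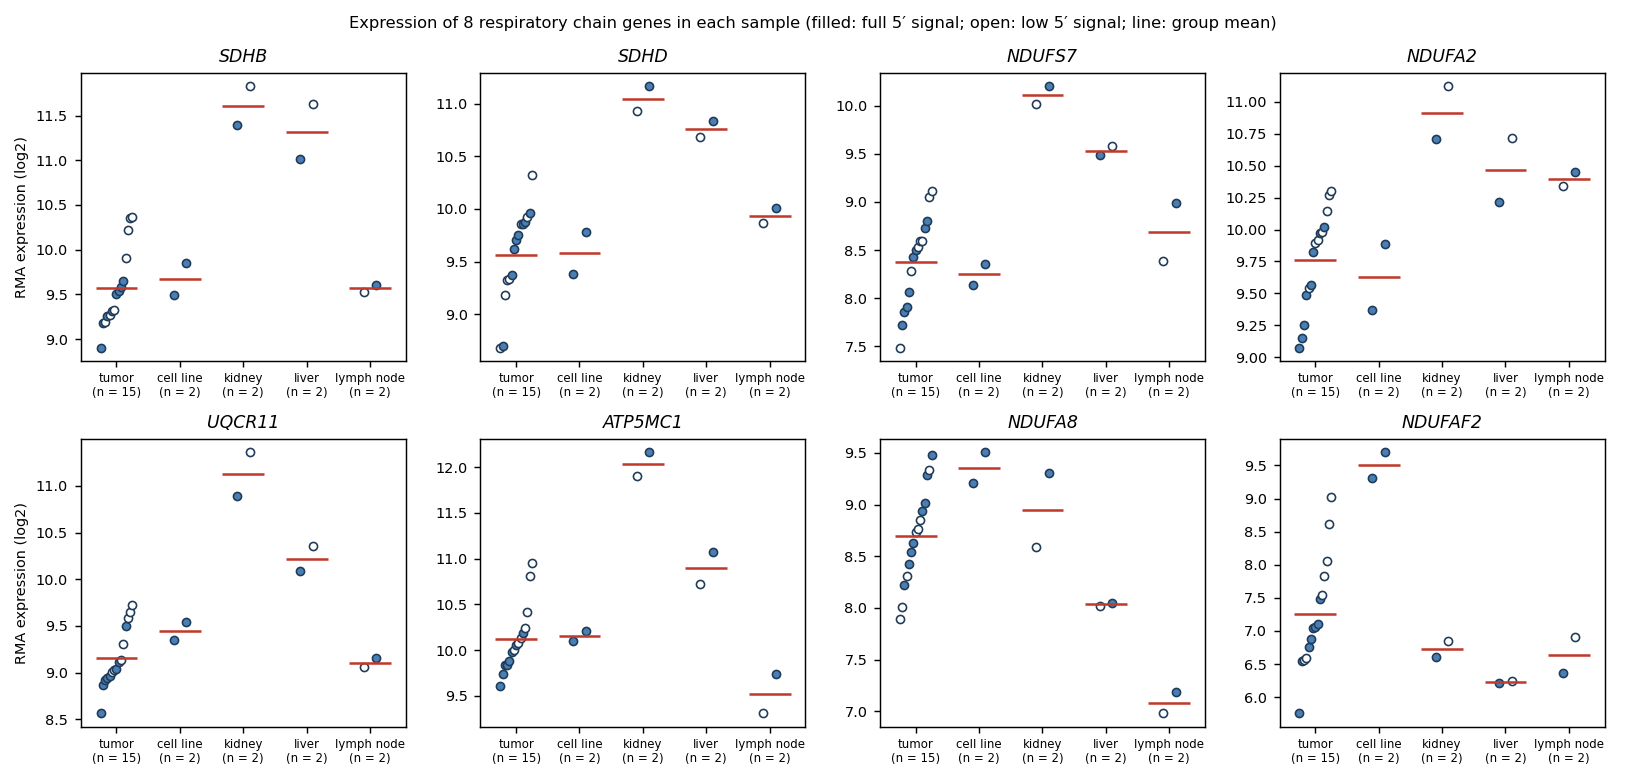
RMA expression (log2) of SDHB, SDHD, NDUFS7, NDUFA2, UQCR11, ATP5MC1, NDUFA8 and NDUFAF2 in each sample by group; filled points are arrays with full 5′ signal, open points arrays with low 5′ signal, and lines are group means. For the first 6 genes both kidneys lie above all tumors, NDUFA8 is lowest in the lymph nodes at 6.98 and 7.19, and NDUFAF2 is highest in the cell lines at 9.30 and 9.70.

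Complex I, the largest of the complexes, had 8 of 30 genes lower than kidney and 29 differences below 0, with a median of -0.92. Against liver 0 of 30 passed, although 24 lay below 0 (median -0.33), and against lymph node the median was 0.01. The core subunit NDUFS7 carries the last iron-sulfur cluster before ubiquinone. It was 10.02 and 10.20 in the kidneys, 9.58 and 9.48 in the livers, 8.39 and 8.99 in the nodes and 8.14 and 8.36 in the cell lines. The tumors ran from 7.49 in tumor 12 over 8.502 to 9.12 in tumor 7, below every kidney and liver value and around those of the nodes. NDUFS7 was lower than kidney by -1.74 ± 0.32 (adjusted p = 0.000665) and than all normal samples by -1.07 ± 0.25 (adjusted p = 0.00735). Against liver it gave -1.15 ± 0.32 (adjusted p = 0.0169). The call against kidney was lost without either kidney (adjusted p of up to 0.024), and that against all normal samples without tumor 2, 3, 4, 6, 9, 11 or 15, either kidney or either liver (up to 0.0267).

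NDUFA2 is an accessory subunit of the arm that reaches into the matrix. It was 11.12 and 10.71 in the kidneys, 10.72 and 10.22 in the livers, 10.34 and 10.45 in the nodes and 9.37 and 9.89 in the cell lines. The tumors ran from 9.08 in tumor 3 over 9.89 to 10.30 in tumor 1. It was the one gene of the 60 for which all 15 tumors lay below both lymph nodes, although that difference did not pass (-0.64 ± 0.27, adjusted p = 0.214), and 13 tumors lay below all 6 normal samples. NDUFA2 was lower than all normal samples by -0.83 ± 0.18 (adjusted p = 0.00344) and than kidney by -1.15 ± 0.27 (adjusted p = 0.00636). The first call was lost without kidney 1, kidney 2 or liver 1 (adjusted p of up to 0.0144) and the second without either kidney (up to 0.196).

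NDUFA10, an accessory subunit of the membrane side, was lower in the tumors and higher in the cell lines. Its tumors ran from 7.35 in tumor 9 over 7.67 to 8.33 in tumor 12, against 9.25 and 8.65 in the kidneys, 8.41 and 8.14 in the livers, 8.12 and 7.99 in the nodes and 8.45 and 8.86 in the cell lines. The tumors lay below both kidneys and below both cell lines. The difference was -0.70 ± 0.17 from all normal samples (adjusted p = 0.00882), -1.22 ± 0.22 from kidney (adjusted p = 0.000621) and, for cell lines over tumors, 0.93 ± 0.22 (adjusted p = 0.009). Leaving out 1 sample lost the first call in 15 of 21 fits (adjusted p of up to 0.0305), the second without kidney 1 (0.0812) and the third in 17 of 23 (up to 0.186).

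NDUFA8, an accessory subunit on the outer face of the membrane arm, was the one gene higher in the tumors than in an organ. The lymph nodes were lowest at 6.98 and 7.19, followed by the livers at 8.02 and 8.05, the kidneys at 8.59 and 9.30 and the cell lines at 9.21 and 9.51. The tumors ran from 7.89 in tumor 8 over 8.73 to 9.48 in tumor 3, all above both nodes and overlapping liver and kidney. NDUFA8 was 3.05-fold higher in tumors than in lymph node (1.61 ± 0.32, adjusted p = 0.00225). A further, dimmer probe set of the gene gave 0.22 (adjusted p = 0.668), and the mean of both probe sets did not pass.

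The other complex I genes lower than kidney were NDUFA6 (-1.52 ± 0.28, adjusted p = 0.000559), NDUFV2, NDUFB3, NDUFB10 and NDUFB7, the last 4 by -0.97 to -1.04. NDUFA6 belongs to the matrix arm and NDUFV2 to the module that accepts electrons from NADH, while the NDUFB subunits belong to the membrane arm. NDUFA6 was 11.40 and 10.61 in the kidneys and 8.90 to 10.07 in the tumors (median 9.44), with liver 1 at 10.35 above all tumors and liver 2 at 9.74 within their range. NDUFA6, NDUFV2, NDUFB3 and NDUFB10 lost their calls without kidney 1 (adjusted p of 0.0808 to 0.269) and NDUFB7 lost its call in 14 of 23 fits (up to 0.11). NDUFA12, the brightest probe set of complex I, was 11.83 and 11.49 in the kidneys and 10.09 to 11.38 in the tumors, and did not pass (-0.95 ± 0.28, adjusted p = 0.0277).

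Complex III, which passes electrons from ubiquinol to cytochrome c, had 3 of 7 genes lower than kidney and all 7 below 0, with a median of -1.27. Against liver 1 passed, with a median of -0.79, and against lymph node the median was 0.05. UQCR11, the smallest subunit, was 11.36 and 10.89 in the kidneys, 10.35 and 10.09 in the livers, 9.06 and 9.16 in the nodes and 9.54 and 9.35 in the cell lines. The tumors ran from 8.56 in tumor 9 over 9.04 to 9.72 in tumor 8, below every kidney and liver value and on both sides of the nodes. It was 3.92-fold lower than in kidney (-1.97 ± 0.23, adjusted p = 1.82e-06) and 2.09-fold lower than in liver (-1.06 ± 0.23, adjusted p = 0.00207). The liver call was lost without either liver (adjusted p of up to 0.0795). The second, dimmer probe set of UQCR11 differed by 0.09 from kidney (adjusted p = 0.836) and by 0.00 from liver, so that the calls rest on 1 probe set.

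UQCRC1, a core subunit, was 11.32 and 10.69 in the kidneys, 10.33 and 10.24 in the livers, 9.43 and 9.34 in the nodes and 9.93 and 10.30 in the cell lines. The tumors ran from 7.60 in tumor 9 over 9.15 to 9.90 in tumor 1, and thus lay below the kidneys, livers and cell lines. It was lower than kidney by -1.92 ± 0.36 (adjusted p = 0.000784), and its other probe set was lower as well (-1.18, adjusted p = 0.00236). Without kidney 1 the adjusted p of the first was 0.0632. UQCRFS1, the Rieske iron-sulfur protein, was 11.74 and 11.18 in the kidneys and 9.23 to 10.81 in the tumors (median 9.93), lower by -1.46 ± 0.33 (adjusted p = 0.00407), and its other probe set gave -1.41 (adjusted p = 0.00161). The call was lost without either kidney (adjusted p of up to 0.168). UQCRH, the hinge protein and the brightest probe set of complex III, was 11.64 and 11.05 in the kidneys and 10.08 to 11.25 in the tumors, and CYC1, cytochrome c1, was 9.48 and 10.45 and 8.45 to 10.42. Both overlapped the tumors and did not pass (adjusted p = 0.103 and 0.471).

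Complex IV is the oxidase that reduces oxygen. Of its 6 genes 0 passed against kidney, liver or lymph node, with medians of -0.16, -0.11 and 0.09. These medians include the dim probe sets of COX4I1, COX4I2 and COX6A2, with means over all samples of 4.61, 5.19 and 3.84. They are therefore no measure of complex IV as a whole. COX5A, a subunit on the matrix side, was 10.87 and 11.25 in the kidneys, 10.30 and 10.47 in the livers, 9.95 and 9.81 in the nodes and 9.48 to 11.06 in the tumors, which overlapped the organs. COX8A, the ubiquitous form of the smallest subunit, was 11.06 and 11.08 in the kidneys and 9.26 to 10.63 in the tumors, all below both kidneys, without passing (-1.16 ± 0.30, adjusted p = 0.0118). The isoforms of subunit 4 were read by dim probe sets. COX4I1, the general form, was 5.45 and 4.69 in the kidneys and 4.26 to 5.27 in the tumors, and COX4I2, known from lung, was 5.03 and 5.20 and 4.999 to 5.78. COX6A2, the heart and muscle form of subunit 6A, ran over the tumors only from 3.70 to 4.30, with the highest value in tumor 5, the tumor with high muscle markers, whose part in it was not tested. Dim values are compressed by RMA, and COX4I1, COX6A2 and the complex I gene NDUFC1 had means below 4.92, the median over all probe sets.

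Complex V, the ATP synthase, had 4 of 9 genes lower than kidney and 8 below 0, with a median of -0.84. Against liver and lymph node 0 passed, with medians of -0.30 and 0.30. ATP5MC1, ATP5MC2 and ATP5MC3 encode the same mature subunit c of the rotor ring, and only the first passed against kidney. ATP5MC1 was 11.91 and 12.16 in the kidneys, 10.72 and 11.07 in the livers, 9.31 and 9.74 in the nodes and 10.10 and 10.21 in the cell lines. Its tumors ran from 9.61 in tumor 11 over 10.06 to 10.95 in tumor 1, far below the kidneys and with 14 of 15 above both nodes. It was 3.78-fold lower than in kidney (-1.92 ± 0.25, adjusted p = 1.23e-05) and did not pass against lymph node (0.60 ± 0.25, adjusted p = 0.207). ATP5MC2 was 8.79 and 10.41 in the kidneys, 9.06 and 10.67 in the livers, 10.0015 and 11.12 in the nodes and 9.50 to 11.02 in the tumors. Replicate 1 of each organ, an array with low 5′ signal, was thus lower than replicate 2. ATP5MC3 was 12.04 and 11.83 in the kidneys and 10.47 to 11.64 in the tumors (-0.80 ± 0.27, adjusted p = 0.0681).

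In the catalytic head of the enzyme 3 subunits were lower than kidney. ATP5F1B, the catalytic beta subunit, was 12.71 and 12.48 in the kidneys, 12.13 and 11.53 in the livers, 11.22 and 10.80 in the nodes and 10.87 to 11.77 in the tumors (median 11.44). All tumors lay below both kidneys, and the difference was -1.25 ± 0.23 (adjusted p = 0.000746). The gamma subunit ATP5F1C (-1.44 ± 0.26, adjusted p = 0.000499) and the alpha subunit ATP5F1A (-0.84 ± 0.20, adjusted p = 0.0056) were lower as well, with all 15 tumors below both kidneys. For ATP5F1A, 2 of 3 further probe sets lay in the opposite direction (0.26 and 0.98). ATP5F1B and ATP5F1C lost their calls without kidney 1 (adjusted p = 0.0405 and 0.0299), and ATP5F1A without either kidney (up to 0.101). The stalk subunit ATP5PO was 10.75 and 10.04 in the kidneys, 9.54 to 10.30 in the tumors, and 9.14 and 9.15 in the cell lines, the lowest values but for the 9.04 of lymph node 2.

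The 5 NDUFAF assembly factors each had their highest group mean in the cell lines. Of the 5, 0 passed against any organ, 1 lay below 0 against kidney (median 0.19) and 0 against liver (median 0.28), and in 0 of them did the organ means run from kidney over liver to lymph node. NDUFAF2 was 9.30 and 9.70 in the cell lines, 6.84 and 6.60 in the kidneys, 6.24 and 6.22 in the livers, 6.90 and 6.36 in the nodes, and ran over the tumors from 5.75 in tumor 13 over 7.06 to 9.02 in tumor 4. The cell lines lay above all tumors, and the tumors spanned the organs. NDUFAF1, a factor for the early membrane arm, was 8.81 and 8.35 in the cell lines, 7.72 to 8.13 in the organs and 7.27 to 9.14 in the tumors.

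Of the 60 genes 8 were higher in the cell lines and 0 lower, where 5.84% of named genes were higher and 2.92% lower, and the median was 0.36 against 0.10. Both cell lines lay above all tumors for 13 genes (11.3% of named genes) and below all for 2, ATP5PO and COX6A2 (8.27%). By complex, 4 of 30 genes of complex I, 1 of 6 of complex IV and 3 of 5 assembly factors were higher, with 0 in complexes II, III and V, whose medians were 0.10, 0.29 and 0.36. Markers of other cells moved with this comparison. Of 11 macrophage markers 5 were lower in the cell lines and 0 higher, with a median of -2.90, and the medians of 4 osteoclast and 8 osteoblast markers were -3.03 and -1.20. The mean macrophage level relative to the series was -2.65 and -2.53 in the cell lines and -0.59 to 1.99 in the tumors, and its part in the result was not tested. The mean array median of the cell lines minus that of the tumors was -0.11, and centring each array on its median gave 9 calls. Both cell line arrays had full 5′ signal, as had 8 of the tumors, while 7 tumors had low 5′ signal. With the 3′ minus 5′ difference as a covariate 11 genes passed, the 8 among them. With only arrays of full 5′ signal NDUFAF2, NDUFB3 and NDUFV2 passed, so that of the 8 only NDUFAF2 kept its call. That fit held fewer samples, and the cause of these losses was not tested.

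The largest difference was that of NDUFAF2 (2.24 ± 0.55, 4.74-fold, adjusted p = 0.00945). NDUFAF7, a mitochondrial methyltransferase, was 6.53 and 6.995 in the cell lines against 4.98 to 6.33 in the tumors (1.11 ± 0.26, adjusted p = 0.00697). NDUFAF5 was 7.83 and 8.16 against 6.77 to 7.75 (0.77 ± 0.18, adjusted p = 0.0076), and 3 of its 4 further probe sets were higher too, by 1.88 to 2.42. The matrix arm subunit NDUFA5 was 9.73 and 10.09 in the cell lines and 7.02 to 9.22 in the tumors (1.69 ± 0.41, adjusted p = 0.00848). NDUFS6, a zinc-binding subunit of the same arm, was 9.78 and 10.89 against 8.12 to 10.03 (1.47 ± 0.36, adjusted p = 0.00899), so that cell line 1 lay below tumor 1. The supercomplex factor COX7A2L was 9.74 and 9.73 against 7.93 to 9.25 (1.25 ± 0.29, adjusted p = 0.00662), and the membrane arm subunit NDUFB7 was 9.74 and 8.96 against 7.84 to 8.84 (0.97 ± 0.24, adjusted p = 0.00908). Both cell lines also lay above all 6 organ samples for NDUFAF2, NDUFAF7, NDUFAF5, NDUFA5 and COX7A2L, while those of NDUFS6, NDUFB7 and NDUFA10 overlapped the kidneys. The count of all genes past the threshold, newly passing ones included, was 0 without either cell line, 2 without tumor 8, 3 without tumor 11 or 15 or either liver, 4 without tumor 3, 7, 10 or 14 or either kidney, and 5 without tumor 2, 5, 6 or 9 or either lymph node. Among these 5, 1 gene was lower without tumor 5 and 2 were lower without either node. COX7A2L and NDUFAF7 were lost only without a cell line, with adjusted p of up to 0.0782 and 0.159. NDUFAF5 was lost in 7 of 23 fits, NDUFA5 in 15, NDUFB7 in 17, NDUFS6 in 18 and NDUFAF2 in 19, with adjusted p of up to 0.167, 0.128, 0.296, 0.271 and 0.129.

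The organs were also set against each other. Between kidney and liver 0 of 60 genes passed in either direction (2.16% of named genes were higher and 2.84% lower in kidney), with a median of 0.44 against 0.04, and 13 had an unadjusted p under 0.05, all higher in kidney, where 597 of the 6540 named genes were higher and 475 lower. Both kidneys lay above both livers for 33 genes, as for 24.8% of named genes. Kidney exceeded lymph node in 6 genes and fell below it in 0 (5.06% and 3.09% of named genes), with a median of 0.95 against -0.07. The kidneys lay apart on the higher side for 44 (23.9%) and on the lower side for 2, the assembly factors NDUFAF1 and NDUFAF7 (31.8%). The 6 were ATP5MC1 (2.51 ± 0.34, 5.71-fold, adjusted p = 2.09e-05), SDHB (2.04 ± 0.41, adjusted p = 0.00179), UQCR11 (2.02 ± 0.30, adjusted p = 7.54e-05), NDUFA8 (1.86 ± 0.42), ATP5F1B (1.58 ± 0.31) and NDUFV2 (1.36 ± 0.27). Liver exceeded lymph node in 2 and fell below it in 0 (5.73% and 4.17%), with a median of 0.40 against -0.11. These were SDHB (1.75 ± 0.41, adjusted p = 0.00597) and ATP5MC1 (1.37 ± 0.34, adjusted p = 0.00868). The livers lay apart on the higher side for 30 (24.5%) and on the lower side for 3 assembly factors, NDUFAF2, NDUFAF6 and NDUFAF7 (36.2%). Each pair of comparisons shares an organ. The kidney and lymph node count was 2 without lymph node 2 and 4 without kidney 1, with ATP5MC1 and UQCR11 past the threshold in all 23 fits. ATP5F1B and NDUFV2 were lost without kidney 1 or lymph node 2, SDHB without kidney 1 or either node and NDUFA8 without kidney 2 or either node, with adjusted p of up to 0.0383, 0.0452, 0.0307 and 0.0819. The liver and lymph node count was 0 without any sample of either organ, 1 without tumor 2, 3, 5, 6, 8, 10, 12 or 14, either kidney or either cell line, and 3 without tumor 9. SDHB was lost in 4 of these fits and ATP5MC1 in 16, with adjusted p of up to 0.0894 and 0.0984.

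Among the tumors themselves the genes of the chain had a median SD of 0.42 over the 60 (n = 15 tumors), against 0.42 over all named genes. The SD ran from 0.14 for NDUFC1 to 0.95 for NDUFA9, and its median by complex was 0.49 in III, 0.46 in II, 0.44 in I, 0.38 in V and 0.34 in IV. Tumor 9 had the lowest tumor value of 22 genes and the highest of 0, and tumor 13 the lowest of 12. Tumor 4 had the highest of 19 and the lowest of 0, and tumor 1 the highest of 18. The low end was widest in complex II, where tumor 9 had a relative level of -1.001 and tumor 4 of 0.38. Tumor 9 and tumor 13 were arrays with full 5′ signal, and tumor 1 and tumor 4 arrays with low 5′ signal.

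The 5′ signal of the array moved with some of these values. In the 7 tumors of low 5′ signal, set against the other 8, 1 of 60 genes was higher and 0 lower, where 0.810% of named genes were higher and 3.03% lower, and the median was 0.25 against 0.08. At an unadjusted p under 0.05, 19 of the 60 were higher and 2 lower, as were 1014 and 682 of the 6540 named genes. The gene that passed was NDUFS3, a core subunit of the matrix arm, at 8.83 to 9.57 in the low class and 7.57 to 8.66 in the other (0.99 ± 0.17, adjusted p = 0.00155), without overlap (0.688% of named genes). In the other direction NDUFA9, which lies where the arms of complex I meet, did not overlap either (2.45%), at -1.42 ± 0.31 (adjusted p = 0.0105). NDUFA9 was 5.18 in kidney 1, 5.30 in liver 1 and 4.68 in lymph node 1, all of low 5′ signal, and 9.39, 8.41 and 7.81 in their replicates 2. The count was 3 without tumor 3 and 2 without tumor 4 or 12.

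**Figure D4:**
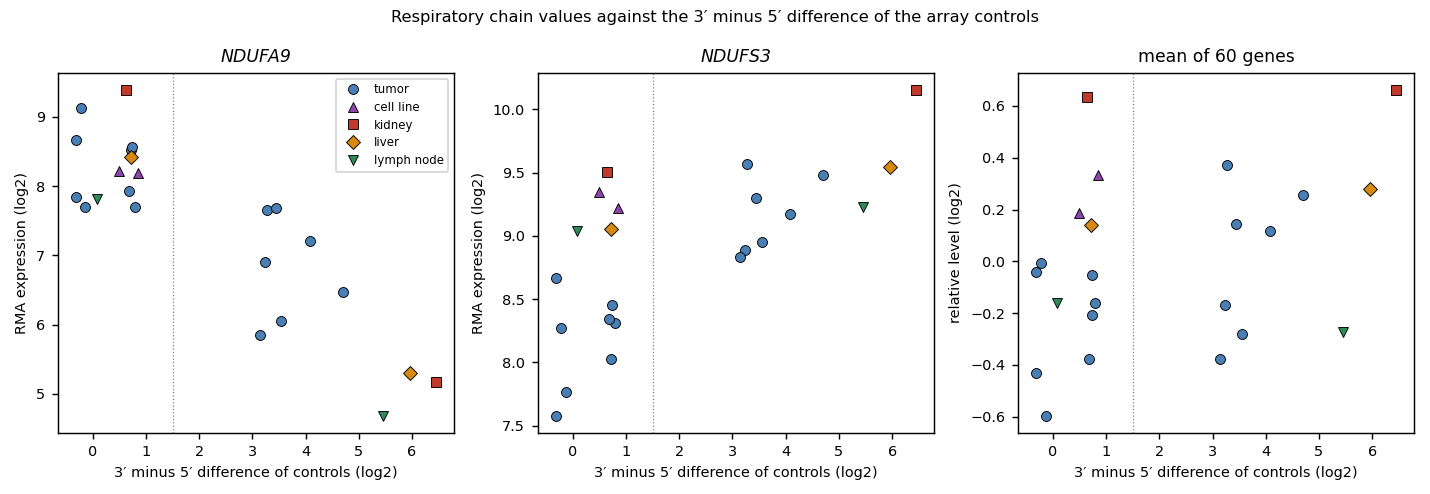
RMA expression (log2) of NDUFA9 and NDUFS3 and the relative level of the 60 genes against the 3′ minus 5′ difference of the array controls (log2) for the 23 samples, with groups by symbol and the border of 1.5 as a dotted line. NDUFA9 lies at 4.68 to 5.30 on the 3 organ arrays right of the border, while the kidneys have the highest relative level on either side of it, 0.66 and 0.64.

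The kidney difference was recomputed within each class of 5′ signal, where each organ had 1 array, so these values are given without a test. The median of the 60 against kidney was -0.78 among arrays with low 5′ signal and -0.96 among the others, and 53 genes kept their sign in both, the 18 that passed among them. Against liver the medians were -0.27 and -0.35, with 46 genes of the same sign, and against lymph node 0.20 and -0.05, with 33. Against all normal samples they were -0.26 and -0.41, with 43. The shares of all named genes that kept their sign were not computed. The 18 genes were called on these same arrays, so their kept signs add no support. SDHB gave -2.02 and -2.03 against kidney, and UQCR11 -2.01 and -1.90. With the 3′ minus 5′ difference as a covariate, 15 genes were lower than kidney, 3 than liver and 2 than all normal samples (NDUFA2 and SDHD). The tumor difference from all normal samples was also tested for a change between the classes in limma. Of the 60 genes 0 passed, and of all 23836 probe sets only 9 did, so this test says little about the chain. An unadjusted p under 0.05 was found for 8 of the 60, and the share over all named genes was not computed. NDUFA9 had the widest gap, 1.78 in the low class and -0.29 in the other (adjusted p = 0.133).

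Other mitochondrial gene lists were read from the same fits, in which 7.19% of named genes were lower than kidney. Of 14 genes of pyruvate dehydrogenase and the tricarboxylic acid cycle, 6 were lower than kidney and 0 higher, with a median of -0.80. They included SUCLG2 (-2.96 ± 0.32), SUCLG1 (-1.71 ± 0.31), both of succinyl-CoA synthetase, which makes the succinate that complex II oxidizes, as well as DLD (-1.96 ± 0.47) and the isocitrate dehydrogenase subunit IDH3G (-1.85 ± 0.27). Against liver 3 were lower and 2 higher, and against all normal samples 2 were lower. Of 20 assembly factors outside the rule, 4 were lower than kidney, with a median of -0.69, led by FOXRED1, a complex I assembly factor (-2.91 ± 0.38, adjusted p = 9.28e-06), and by the complex II factor SDHAF4 (-1.91 ± 0.46). FOXRED1 also differed with the 5′ signal, being higher in the tumors of low 5′ signal than in the others (0.97 ± 0.15, adjusted p = 0.0011). Of 15 electron carrier and ubiquinone genes 2 were lower, ETFDH (-1.47 ± 0.33) and ETFB (-1.36 ± 0.32), which bring electrons from fatty acid oxidation to ubiquinone. Of 12 carriers of the mitochondrial membranes 2 were lower, the ADP/ATP carrier SLC25A5 (-1.61 ± 0.34) and the pore VDAC1 (-0.96 ± 0.23). Of 11 regulators of mitochondrial biogenesis 1 was lower, the coactivator PPARGC1A (-0.71 ± 0.15, adjusted p = 0.00225). Its probe set was dim, with means of 4.29 in the tumors and 4.99 in kidney, where the median over all probe sets was 4.92. The counts of 2 of 15, 2 of 12 and 1 of 11 lay too close to the background to be a result about those lists.

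Few genes of the general machinery of the organelle passed against kidney. Of 54 mitochondrial ribosomal proteins 1 was lower than kidney, MRPL48 (-1.46 ± 0.36), with a median of -0.11, and of 22 import and chaperone genes 0, with a median of -0.12. Both shares were below the background. In the cell lines, with a background of 5.84% higher and 2.92% lower, 11 of the 54 ribosomal proteins were higher than in tumors and 1 lower, with a median of 0.83, among them MRPL16 (1.90 ± 0.33), MRPL46 (1.76 ± 0.35), MRPL19 (1.75 ± 0.31) and MRPS26 (1.67 ± 0.26). Carriers followed with 3 of 12, SLC25A11, SLC25A5 and SLC25A12, assembly factors outside the rule with 3 of 20, ACAD9, UQCC1 and COX15, and ubiquinone genes with 2 of 15, COQ8B and COQ2. A tricarboxylic acid cycle gene, IDH3A (1.55 ± 0.19), and an import gene, TOMM22 (1.04 ± 0.21), were higher, and 0 regulators. The counts of 1 of 14 and 1 of 22 lay near the background, and those of 2 of 15, 3 of 12 and 3 of 20 rest on few genes. None of these counts is a result about its list. MRPS26 was also lower in tumors than in lymph node (-1.60 ± 0.26, adjusted p = 0.000269).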

How the data were processed

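The authors summarized 23 arrays by RMA, which corrects background, makes the distributions of all arrays alike and combines probes on a log2 scale, and deposited these log2 values, which ran from 2.52 to 14.2. Versions of the software are not given in the sources used here. Of 23913 probe sets 77 controls were set aside, and 23836 were tested. Per the platform annotation 10549 had 1 gene symbol, 138 several and 13149 none. Each of the 6540 named genes was read from 1 probe set, that of highest mean in the 23 samples. Of the 60 members, 32 had 1 probe set and 28 several. Quantile normalization hides a change in total RNA, and precision is limited by the number of arrays.

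Tests, two-sided, used lmFit and eBayes of limma 3.58.1 (R 4.3.3), with Benjamini-Hochberg adjustment over the whole array and a threshold of 0.01, and were tested on simulated data. Tumors and normal samples were fitted as 2 groups, the other contrasts in 1 model of 23 samples in 5 groups. The 5′ classes were divided at 1.5, in a gap without arrays. The closest of 253 sample pairs correlated at 0.978, so none was counted as a duplicate. Members and gene lists were chosen with earlier results of these data known. The text names SDHB, SDHD, NDUFS7 and NDUFA2, the genes past the threshold in a comparison (the 8 largest where more passed), the brightest and the most variable gene of each complex, tissue isoforms, and up to 4 genes of each other list. Other genes are named as chosen for their values. Lists of mitochondrially encoded and erythroid genes had 0 named members. Of 3 adipocyte markers no result was used.

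Same-numbered organ samples deviated together (over 23836 probe sets, r = 0.607 between kidney and liver, 0.596 between kidney and node, 0.530 between liver and node). The numbers of the labels were therefore used as a replicate block. The low 5′ arrays of the organs were all replicate 1, so a shared dog and the 5′ class cannot be told apart here. Alternatives were a threshold of 0.05, dim probe sets left out, all probe sets of a gene averaged, median-centred arrays, an intensity trend, the 5′ difference as covariate, each 5′ class alone (for single organs and cell lines chosen after seeing the data), organ as a block, a replicate block and each sample left out.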

Additional observations from a re-analysis of the deposited data

Results flagged for a closer look

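Of 63 groups of 6 to 8 samples examined for 21 named genes, 3 held a sample far from the others of its group by Dixon's criterion, and chance gives about 1 in 20. SDHD in tumor 9 was 8.70, against 9.38 in the nearest of the 8 tumors with full 5′ signal. NDUFS6 in tumor 1 was 10.03, against 9.20 in the nearest of the 7 tumors with low 5′ signal. NDUFAF7 in lymph node 1 was 5.99, against 5.70 in the nearest of the 6 normal samples.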

How the results depend on the processing

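At a threshold of 0.05 the counts were 14 for tumors against normal samples (NDUFAF5 higher, the others lower) and 9 against liver. They were 13 for cell lines against tumors (11 higher and 2 lower, ATP5PO and COX6A2). The organs gave 1 for kidney against liver, 15 for kidney against lymph node and 4 for liver against lymph node. The 5′ classes of tumors gave 6 (NDUFA9 lower, the others higher). The shares of all named genes at this threshold, or under any other alternative setting, were not computed. Within a 5′ class each organ had 1 array, assumed to vary like the other groups. Only arrays with low 5′ signal gave 0 against normal samples, 4 against kidney, 0 against liver and lymph node, and 0 for kidney or liver against lymph node. Only arrays with full 5′ signal gave 0 against normal samples, 5 against kidney, 0 against lymph node, 3 for cell lines, and 1 for kidney or liver against lymph node. The 5′ covariate gave 2 against normal samples and 4 for liver against lymph node. Centring gave 3 and 1 for these. The intensity trend gave 5 for cell lines (4 higher and 1 lower, COX6A2), 1 for liver against lymph node and 2 for the 5′ classes (NDUFS3 higher and NDUFA9 lower). With dim probe sets left out the last was 2, the same genes, and averaged probe sets gave 0 for it and 0 against lymph node. With organ as a random block, or 1 averaged profile per organ, the count against normal samples was 0. Leaving out 1 sample gave 0 to 10 against normal samples, 3 to 19 against kidney, 0 to 5 against liver, 0 to 1 against lymph node, 0 to 7 for cell lines, 0 to 0 for kidney against liver, 2 to 7 for kidney against lymph node, 0 to 3 for liver against lymph node and 1 to 3 for the 5′ classes.

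The replicate block was, within the organs, also the division by 5′ class. It gave 18 against kidney, 2 against liver, 1 against lymph node and 0 for kidney against liver. For kidney against lymph node it gave 6, and for liver against lymph node 2. It ended the call of SDHD against liver and changed no other call. Direction was followed for the largest calls of each comparison, not for every call, and none of these changed direction under any alternative. Among the values followed, 1047 were unchanged, a count that holds medians over the genes of the chain as well as single genes. A further 281 no longer passed. The cause of these losses was not tested, and some of the settings held fewer samples. Of 50 further probe sets of 28 genes, 9 lay in the opposite direction to the one used against kidney and 11 against liver. The number was 18 against lymph node, 14 against all normal samples and 20 for cell lines against tumors. It was 13 for kidney against liver, 12 for kidney against lymph node, 20 for liver against lymph node and 22 for the 5′ classes of tumors.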
